A study of Mus musculus with 12 samples.

Results

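Carboxylesterases are serine hydrolases of the endoplasmic reticulum. Mouse liver nuclei carried RNA of 10 genes of this family, which were followed through hepatocyte isolation and culture. In cultured hepatocyte nuclei most of them were counted at or below their level in endothelial nuclei of the same samples. The 10 genes are Ces1b, Ces1c, Ces1d, Ces1e, Ces1f, Ces1g, Ces2a, Ces2e, Ces3a and Ces3b, chosen by name among the 32285 genes in the matrices. All 10 passed the filter on low counts in hepatocyte nuclei and in endothelial nuclei. A further 9 carboxylesterase genes are described as a separate list. The samples came from 8 mice, and each mouse gave 3 samples: liver tissue (Liver), hepatocytes in suspension after collagenase perfusion (Cell Suspension), and hepatocytes plated on collagen for 24 hours (Primary Hepatocytes). According to the methods the mice were male C57BL/6NTac on chow diet, aged 10 to 12 weeks at isolation, whereas the deposited labels name the strain C57BL6J. All were wild type and were sedated with tribromoethanol, and the liver piece was cut after blood had been cleared with buffer but before collagenase. Only Primary Hepatocytes were also kept in medium with dexamethasone and insulin and lifted with trypsin, so culture, hormones and detachment cannot be told apart. Samples of the same number were read as coming from the same mouse.

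Carboxylesterases cleave ester, amide and thioester bonds of drugs, prodrugs and lipids, and the liver is a main site of their synthesis. Members of the Ces1 group include enzymes that mobilize stored triacylglycerol for lipoprotein assembly, whereas Ces2 enzymes favor esters of a large alcohol and a small acyl group. Most members stay in the endoplasmic reticulum, and Ces1c is secreted into mouse plasma, where it hydrolyses many ester drugs.

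The family lies in 2 clusters on chromosome 8 (GRCm38), and the sequences show how alike its members are. Ces1 members lie on the minus strand, from Ces1b at chr8:93056728-93080017 to Ces1g at chr8:93302369-93337308. Ces2 and Ces3 members lie on the plus strand, from Ces2a at chr8:104734003-104741634 to Ces3b at chr8:105083753-105093929. The catalytic serine sits in a motif of glycine, any residue, serine, any residue, glycine, which was found once in each coding sequence of GENCODE M21 and lay in exon 5 of all 10 genes. The 27 coding bases around this serine are shown 5′ to 3′, with the serine codon in capitals.
Ces1b: gtctttgggtcaTCAgcaggaggtgtc
Ces1c: atctttggagagTCAtcagggggtatc
Ces1d: atctttggagagTCAgcaggaggtttc
Ces1e: atctttggagagTCAgcaggaggtgaa
Ces1f: atctttggagagTCAgcaggaggttac
Ces1g: atcttcggcgagTCAgcaggaggtgaa
Ces2a: atatttggagtcTCAgcaggaggtaca
Ces2e: atttttggagagTCAgcaggtggcaca
Ces3a: atcttcggtaacTCTgctggaggcatt
Ces3b: atcttcggtaacTCTgctggaggcatg
The stretch lies at chr8:93123115-93123141 in Ces1c, at chr8:93187758-93187784 in Ces1d and at chr8:105086670-105086696 in Ces3b. Ces3a and Ces3b share the serine codon TCT, whereas the other 8 genes use TCA.

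The close kinship bears on how reads were assigned. Coding sequences of Ces3a and Ces3b were 95.3% identical over aligned bases, those of Ces1b and Ces1c 91.2%, and those of different groups between 62.9% and 65.3%. Of the 31-base words in Ces3a transcripts, 34.9% also occurred in Ces3b, and 30.2% of Ces2a words occurred in other genes, mostly in Gm7208. In Ces1d, Ces1e, Ces1f, Ces1g and Ces2e the shared part was between 3.36% and 8.68%. Values of Ces3a, Ces3b, Ces2a, Ces1b and Ces1c are therefore uncertain to the extent that spliced reads were split between copies. The annotation also places 2 other genes within members, Gm45909 in Ces1d on the same strand and Gm45724 in Ces3a on the opposite strand, neither of which is a row of the matrices.

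The matrices count unique molecular identifiers (UMIs), each standing for 1 captured RNA molecule. Hepatocyte nuclei numbered 15166 in Liver, 13339 in suspension and 16283 in culture, and their summed UMIs ranged from 2104087 to 29023569 per sample. Endothelial nuclei numbered 2474, 1152 and 1809, with between 95289 and 2578536 UMIs per sample. Levels are scaled by the trimmed mean of M-values (TMM) unless called plain. Summed levels of 10 hepatocyte markers in hepatocyte nuclei ranged from 12568 to 19359.9 CPM (counts scaled to a total of 1000000) in Liver and from 2280.05 to 6156 CPM in Primary Hepatocytes, where all 10 fell. In Cell Suspension they ranged from 17675 to 23939.5 CPM. Summed endothelial markers in the same nuclei were between 38.6 and 124 CPM in every sample. Liver and Primary Hepatocytes shared only 2 of the 6 pools in which 4 samples each were processed, so most of this comparison is between pools. Of 53128 barcode sequences, 337 occurred in more than 1 pool.

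In Liver, Ces3a had the highest level per kilobase of gene, and Ces2e the lowest mean. Mean CPM per kilobase of gene body was 92.8 ± 22.9 for Ces3a and 65.6 ± 83.6 for Ces3b (SD, n = 8). The Ces3b mean rests on a few mice: its median was 17.4, near the 14.7 of Ces1c, and its mean without mouse 5 was 43.1. Ces1c (14.1 ± 3.11), Ces1f (14.0 ± 5.84), Ces1d (10.1 ± 6.87) and Ces2a (9.92 ± 3.91) followed, and neighbours among these 6 genes differed by less than the SD of their within-mouse difference. Ces2a was above Ces1b (2.83 ± 0.952) in 8 of 8 mice. Ces1e (1.80 ± 0.649), Ces1g (1.42 ± 0.644) and Ces2e (0.965 ± 0.367) were lowest, again with gaps within that SD. These orders depend on division by gene body length. Without it, Liver means were 75.7 CPM for Ces2a and 66.0 CPM for Ces1b. Ces1b was then the higher in some mice, as in mouse 8 (98.1 against 53.7 CPM).

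All 10 members were lower in Primary Hepatocytes than in Liver. Each was called by edgeR's quasi-likelihood test (adjusted p under 0.05 over all genes), and in each the 8 cultured samples lay below all 8 Liver samples. Among the 26778 genes tested, 26.3% were called lower, and 16.2% had no overlap in that direction. The median log2 fold change of the members was -4.15, against 0.10 over all genes. The summed level of the 10 genes fell from between 2015 and 4445 CPM in Liver to between 82.6 and 189 CPM in Primary Hepatocytes. Within the 2 shared pools, the Liver sums were 2969 and 4445 CPM, and the 3 cultured samples had 99.1, 120 and 136 CPM.

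**Figure D1:**
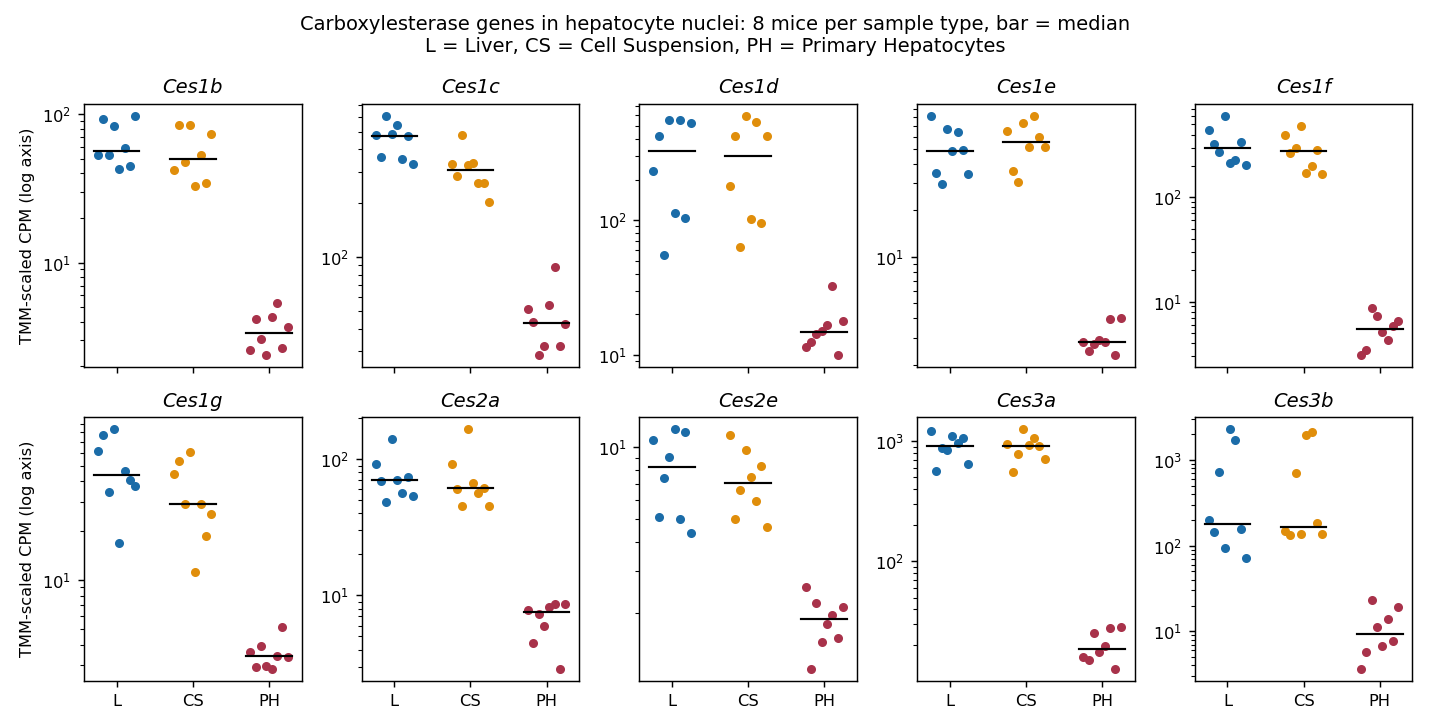
TMM-scaled CPM on a log axis for each of the 10 genes in hepatocyte nuclei, 1 point per mouse and a bar at the median of the 8 Liver, Cell Suspension and Primary Hepatocytes samples. In every panel the cultured samples lie below all others, while Liver and Cell Suspension overlap.

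Among Ces1 members, the fall from Liver was largest in Ces1f and smallest in Ces1c. Ces1f ranged from 206 to 608 CPM in Liver (median 298) and from 3.06 to 8.74 CPM in Primary Hepatocytes (median 5.42), a log2 fold change of -5.91 ± 0.30 (SE, adjusted p = 9.00e-17). Ces1c, the plasma esterase, ranged from 329 to 614 CPM in Liver (median 475) and from 28.5 to 87.8 CPM in culture (median 42.9), a log2 fold change of -3.29 ± 0.21 (adjusted p = 2.46e-14). Per kilobase of gene, Ces1c (1.44 ± 0.592 CPM) then stood next to Ces3a (2.08 ± 0.619 CPM) in culture. Without division by gene length, the cultured Ces1c values (28.5 to 87.8 CPM) lay above those of Ces3a (12.7 to 28.4 CPM).

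Ces1d encodes triacylglycerol hydrolase, which releases stored lipid for very low-density lipoprotein assembly. It ranged from 55.0 to 558 CPM in Liver (median 327) and from 9.95 to 32.3 CPM in Primary Hepatocytes (median 14.7), and the log2 fold change was -4.30 ± 0.50 (adjusted p = 1.08e-08). Ces1g, another lipid-handling member, went from 16.9 to 83.3 CPM in Liver (median 43.6) to between 2.86 and 5.14 CPM in culture (median 3.42), with a log2 fold change of -3.81 ± 0.30 (adjusted p = 3.45e-12). Both fell in 8 of 8 mice, and the Liver range of Ces1d was the wider.

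Ces1e encodes egasyn, which holds beta-glucuronidase in the endoplasmic reticulum. Its Liver range of 29.7 to 81.6 CPM (median 48.4) dropped to 2.32 to 4.03 CPM in Primary Hepatocytes (median 2.83), a log2 fold change of -4.08 ± 0.23 (adjusted p = 7.90e-16). Ces1b ranged from 42.5 to 98.1 CPM in Liver (median 56.3) and from 2.37 to 5.31 CPM in culture (median 3.36), a log2 fold change of -4.22 ± 0.24 (adjusted p = 1.93e-15). Neither gene overlapped between these sample types.

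Ces2e had the smallest log2 fold change of the 10 members. Its neighbour Ces2a ranged from 48.3 to 141 CPM in Liver (median 70.1) and from 2.88 to 8.70 CPM in Primary Hepatocytes (median 7.54), with a log2 fold change of -3.48 ± 0.27 (adjusted p = 2.46e-12). Ces2e went from between 4.34 and 11.8 CPM in Liver (median 8.22) to between 1.17 and 2.58 CPM in culture (median 1.89), and its log2 fold change was -2.13 ± 0.22 (adjusted p = 1.14e-09). Both fell without overlap in level. Plain levels of Ces2e were low, at 7.28 CPM in hepatocyte and 3.87 CPM in endothelial nuclei of Liver. In Primary Hepatocytes they were 2.49 and 4.65 CPM.

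The Ces3 members both fell, with very different spreads between mice. Ces3a ranged from 562 to 1209 CPM in Liver (median 919) and from 12.7 to 28.4 CPM in Primary Hepatocytes (median 18.8), a log2 fold change of -5.48 ± 0.22 (adjusted p = 6.59e-19). Ces3b ranged from 72.2 to 2271 CPM in Liver (median 177) and from 3.64 to 23.5 CPM in culture (median 9.42), and its log2 fold change of -5.88 ± 0.84 (adjusted p = 4.98e-07) had the largest error of the 10 members. The size of the Ces3b fall depended on mouse 5, without which the log2 fold change was -5.19, and it was -4.74 with the mouse as a replicate block.

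Most members were not called after isolation alone in the unpaired fit, although several were lower in 7 or 8 of 8 mice. Compared with Liver, Cell Suspension had 1 member called of 10, where 14.2% of all genes were called lower (3796 lower and 2184 higher with TMM, 3062 and 2800 with RLE, or median-ratio, size factors), and the members' median log2 fold change was -0.12 against 0.02 over all genes. The called gene was Ces1c, which ranged from 203 to 479 CPM in Cell Suspension (median 305). Its log2 fold change was -0.56 ± 0.19 (adjusted p = 0.0374), and it was lower in 8 of 8 mice, with a ratio between 0.545 and 0.782. Over 19 alternative settings the Ces1c value ranged from -0.80 with the pool as a covariate to -0.40 with all nuclei. That of Ces1g ranged from -0.86 with the pool as a covariate to -0.03 with spliced UMIs alone. The call was lost without mouse 1, 2, 4, 5, 7 or 8 (adjusted p between 0.0578 and 0.0903), with DESeq2 (0.0643), RLE size factors (0.0777), filterByExpr (0.0534), thinned sums (0.0635), spliced UMIs alone (0.0995) and all nuclei (0.148), whereas a fit with the mouse as a replicate block called Ces1c (adjusted p = 0.0219) and Ces1g (log2 fold change -0.54, adjusted p = 0.0359).

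The other members differed between Cell Suspension and Liver by log2 fold changes from -0.53 for Ces1g to 0.14 for Ces1e. Ces1g ranged from 11.2 to 60.4 CPM in Cell Suspension and was lower in 8 of 8 mice, while Ces1e ranged from 30.4 to 81.9 CPM and was lower in 1 of 8. Ces1f, from 169 to 487 CPM, and Ces1b, from 32.8 to 85.3 CPM, were lower in 7 of 8 mice, with adjusted p of 0.595 and 0.55. Ces2a (45.2 to 166 CPM), Ces2e (4.59 to 11.2 CPM) and Ces1d (63.7 to 598 CPM) had ranges close to those in Liver. For Ces3a the log2 fold change was -0.03 ± 0.18 and for Ces3b 0.04 ± 0.68, and the error of the latter is large against most changes in this comparison.

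Compared with Cell Suspension, all 10 members were again lower in Primary Hepatocytes, without overlap. In this comparison 23.5% of all genes were called lower and 12.2% did not overlap in that direction. Log2 fold changes ranged from -1.98 ± 0.23 for Ces2e to -5.92 ± 0.85 for Ces3b. With the mouse as a replicate block the Ces3b value was only -4.80. Ces1f, at -5.70, stayed between -5.97 and -5.42 under 19 alternative settings. The comparison shares its cultured samples with the one against Liver.

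Endothelial nuclei of the same samples served as background, and the source of their carboxylesterase UMIs was not tested. In Liver, plain CPM of the summed members was 401 ± 89.5 in endothelial and 2630 ± 688 in hepatocyte nuclei (SD, n = 8). Apart from Ces2e, every member stood in endothelial nuclei at between 13.7% and 19.5% of its hepatocyte level, and Ces2e stood at 53.1%. The 10 hepatocyte markers stood at between 13.0% and 61.7% (median 26.9%). In Cell Suspension the share of the summed members was 22.3%. Ces2e stood there at 94.5% (6.03 plain CPM in hepatocyte and 5.70 in endothelial nuclei, higher in hepatocyte nuclei in 5 of 8 samples). The other members stood at between 17.4% and 32.2%. Other Liver cell types had the summed members at 441 (biliary), 488 (Kupffer), 518 (stellate) and 715 plain CPM (leukocytes). Low-UMI barcodes, outside the authors' table of nuclei and with at most 100 UMIs, had between 719 and 2748 plain CPM per pool. Pools 3 and 4, without a Liver sample, had 719 and 1052 CPM. How far such RNA entered the values of nuclei was not tested.

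In Primary Hepatocytes the levels of the 2 cell types came together. The summed members were at 158 ± 37.8 CPM in hepatocyte nuclei and 187 ± 112 CPM in endothelial nuclei, and hepatocyte nuclei had more in 5 of 8 samples. The 10 hepatocyte markers drew closer too, with endothelial levels at 37.8% to 158% of hepatocyte levels (median 79.5%). Ces1c was at 61.4 CPM in hepatocyte and 39.2 CPM in endothelial nuclei, higher in hepatocyte nuclei in 6 of 8 samples. Ces3b was at 15.3 CPM in hepatocyte and 34.9 CPM in endothelial nuclei, and Ces1f at 7.46 and 15.8 CPM, each higher in hepatocyte nuclei in only 2 of 8 samples. Cultured levels of most members were thus at or below those of another cell type in the same samples, and the fold changes above hold for what was counted in the nuclei.

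**Figure D2:**
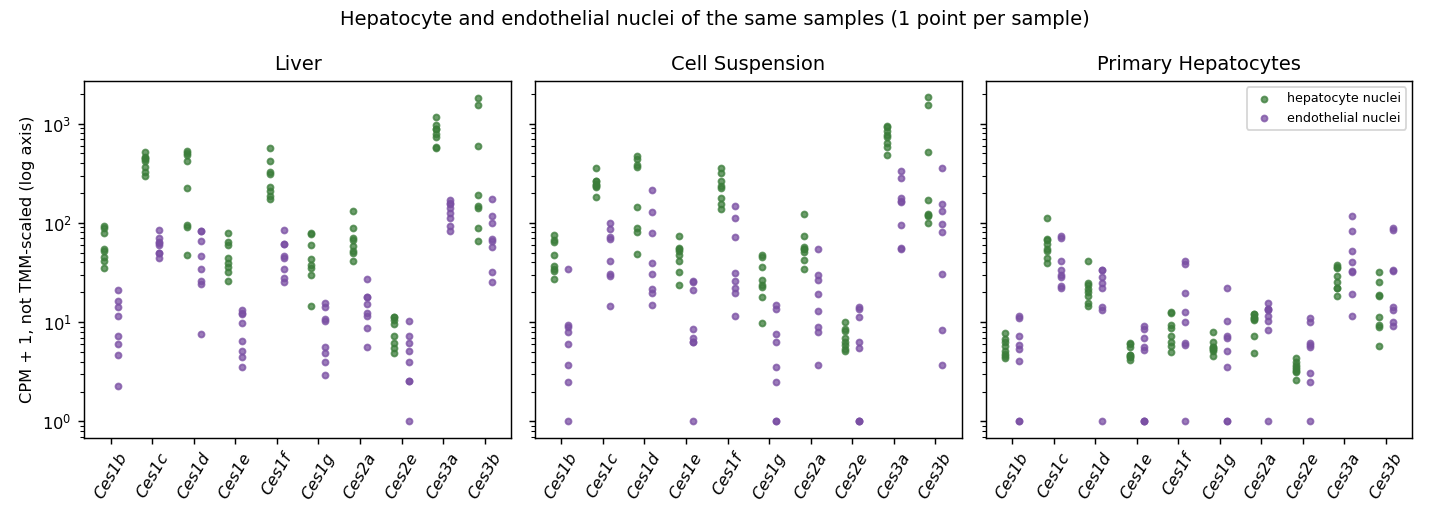
CPM without TMM scaling, plus 1 and on a log axis, in hepatocyte and endothelial nuclei, with 1 point per sample and cell type. Within each of the 8 Liver samples hepatocyte nuclei lie above endothelial nuclei for every gene but Ces2e (6 of 8), while the points overlap in Primary Hepatocytes.

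Within endothelial nuclei, 5 members were called lower in Primary Hepatocytes than in Liver, where 18.3% of 18279 genes were called lower. They were Ces1c, Ces1d, Ces1f, Ces3a and Ces3b, and their log2 fold changes ranged from -0.66 ± 0.25 for Ces1c (adjusted p = 0.0366) to -1.53 ± 0.40 for Ces1f (adjusted p = 0.00238). With RLE size factors 2 members were called, the median of all genes moved from -0.01 to 0.13 on the log2 scale, and 2662 genes were lower and 3533 higher instead of 3352 and 2824. Compared with Cell Suspension, 4 members were lower (Ces1d, Ces1f, Ces3a and Ces3b), against 10.6% of genes. Between Cell Suspension and Liver edgeR called 0 members, none at an unadjusted p under 0.05 either, where 3.91% of genes were called in either direction (344 lower and 371 higher, 213 and 473 with RLE size factors). In these nuclei, the summed hepatocyte markers ranged from 2504 to 4877 CPM in Liver and from 1367 to 4876 CPM in Primary Hepatocytes, and their part in the members' values was not tested.

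Counting nuclei gave the same order. Hepatocyte nuclei with at least 1000 UMIs were thinned to 1000 UMIs each, which left out 587 (Liver), 932 (Cell Suspension) and 293 nuclei (Primary Hepatocytes). A Ces3a UMI was found in 54.7% ± 6.14 of Liver nuclei, 50.8% ± 7.43 of Cell Suspension nuclei and 3.01% ± 1.22 of Primary Hepatocytes nuclei (SD, n = 8). Endothelial nuclei of Primary Hepatocytes, treated alike, held a Ces3a UMI in 5.38% ± 4.88, so the cultured hepatocyte share was not above theirs. Thinning does not equalize the part of background RNA in nuclei of different depth, and this part was not tested. Before thinning, the hepatocyte shares were 90.7%, 80.9% and 14.5%, at median depths of 6861, 3025 and 5916 UMIs per nucleus (endothelial 2862, 1662 and 1499).

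For Ces1c the share of thinned nuclei was 29.3% ± 4.27 for Liver, 18.8% ± 2.47 for Cell Suspension and 5.52% ± 1.28 after culture. The 8 Cell Suspension values lay below the 8 Liver values, with a two-sided exact permutation p of 1.55e-04, the smallest that 8 against 8 can give. Endothelial nuclei had a Ces1c UMI in 5.27%, 4.83% and 3.31%.

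All 10 members had a lower share in Primary Hepatocytes than in Liver in the test of nuclei, where 12% of 26778 genes were called lower when adjusted over all of them. Differences ranged from -0.445 percentage points for Ces2e (exact permutation p = 0.00124) to -51.7 for Ces3a (exact permutation p = 1.55e-04). Against Cell Suspension all 10 were lower too, where 9.12% of genes were. With samples paired by mouse, all 10 were lower in both comparisons, against 10.6% (Liver) and 7.98% (Cell Suspension) of genes. For Cell Suspension against Liver, Ces1c was the only member called unpaired, where 8.96% of genes were called lower. Paired by mouse and adjusted over all genes, 0 of the 26778 genes were called lower, and Ces1b, Ces1c, Ces1d, Ces1f, Ces1g and Ces2a were lower at an unadjusted exact permutation p under 0.05, as were 19% of all genes. With 8 pairs the smallest exact permutation p is 0.00781, so a call after adjustment needs many genes at this value.

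Because members fell by different factors, the make-up of the family's counted UMIs changed. Ces3a accounted for 32.0% ± 7.94 of the members' UMIs in Liver and 17.2% ± 2.56 in Primary Hepatocytes (exact permutation p = 1.55e-04). Ces1c rose from 16.3% ± 4.26 to 38.9% ± 8.95 (exact permutation p = 1.55e-04). Ces2e went from 0.286% to 1.63% and Ces2a from 2.73% to 5.68%, while Ces1f went from 12.1% to 4.91% (exact permutation p of 1.55e-04, 6.22e-04 and 0.00326). Shares sum to the whole and so depend on each other. For Cell Suspension against Liver 0 members were called unpaired (0 at an unadjusted exact permutation p under 0.05) and 5 when paired by mouse. In endothelial nuclei of the cultured samples Ces3a was at 47.5, Ces1c at 39.2, Ces1f at 15.8, Ces2a at 9.88 and Ces2e at 4.65 plain CPM. Hepatocyte nuclei of these samples had 27.1, 61.4, 7.46, 8.96 and 2.49 plain CPM in the same order. The part of such background in these shares was not tested.

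The matrices separate spliced, unspliced and ambiguous UMIs, and a larger part of the members' UMIs was spliced in cultured samples. Since cultured levels of Ces2a, Ces2e, Ces3a and Ces3b were at or below those in endothelial nuclei, the origin of these UMIs was not tested. Over all genes in hepatocyte nuclei, spliced UMIs made up 18.0% ± 1.58 of the total for Liver, 24.8% ± 2.63 for Cell Suspension and 26.2% ± 1.31 for Primary Hepatocytes. Ces3a went from 26.8% ± 4.47 in Liver through 38.7% ± 4.34 to 69.0% ± 10.2 in culture, and Ces2a from 40.2% ± 3.36 through 46.6% ± 3.06 to 79.1% ± 8.24. Ces1f went from 22.6% ± 4.67 to 33.4% ± 5.34.

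**Figure D3:**
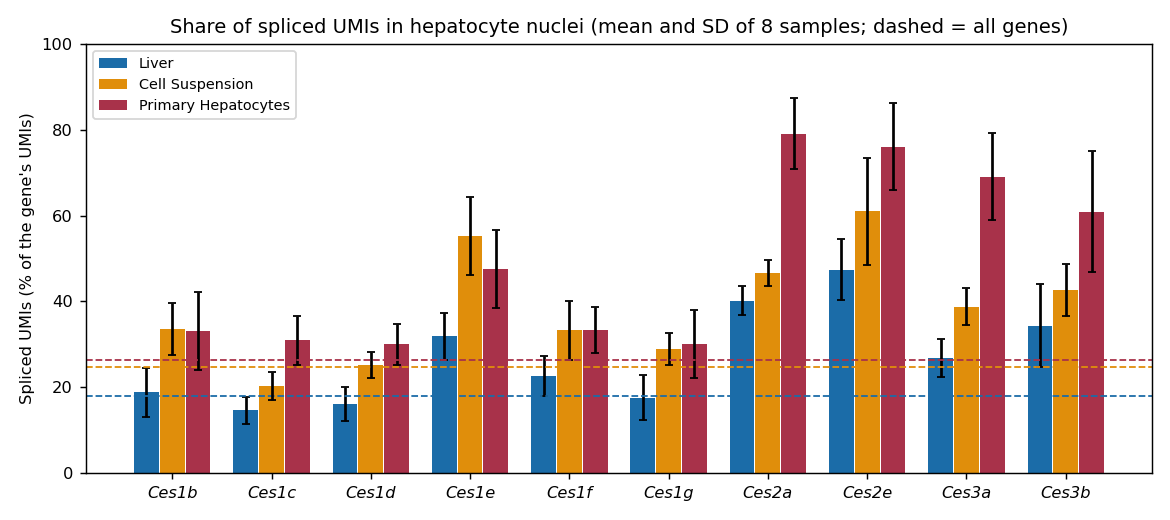
Spliced UMIs as a percent of each gene's UMIs in hepatocyte nuclei, mean and SD of 8 samples per sample type, with dashed lines at the value of all genes together. Primary Hepatocytes stand out in Ces2a, Ces2e, Ces3a and Ces3b, at 79.1%, 76.0%, 69.0% and 60.9%.

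The spliced share was higher in Primary Hepatocytes than in Liver in all 10 members when adjusted over 11177 genes with enough UMIs, of which 61.2% were called higher. Only 12 of these genes rose by more than the 42.3 percentage points of Ces3a, and 21 by more than the 39.0 points of Ces2a. The median gene rose by 4.32 points. Between Cell Suspension and Liver 8 of 9 members tested were higher in this unpaired test, against 64.9% of genes, the exception being Ces3b (8.41 points, exact permutation p = 0.0573). Its share was still higher in Cell Suspension in 7 of 8 mice. Ces2e had too few UMIs in Cell Suspension for this test.

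Between Cell Suspension and Primary Hepatocytes, fewer members were called. Of 9 members tested, Ces1c, Ces2a, Ces3a and Ces3b were higher when adjusted over 7898 genes, where 14.6% were called higher. The difference was 32.6 points for Ces2a and 30.3 for Ces3a, both with an exact permutation p of 1.55e-04. Ces1d (4.87 points, adjusted p = 0.0946 over all genes in the exact permutation test), Ces1b (-0.48 points), Ces1e (-7.70), Ces1f (0.14) and Ces1g (1.10) did not pass. Fitted on unspliced UMIs alone, Ces3a fell from Liver to Primary Hepatocytes by 6.72 on the log2 scale and Ces2a by 5.79, while on spliced UMIs alone they fell by 4.37 and 2.71. For Ces3b these values were 6.61 and 5.00.

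Members differed in where along the lobule their RNA lay. Hepatocyte nuclei of each Liver and Cell Suspension sample were ordered by UMIs of fixed pericentral and periportal genes, and the outermost equal parts of 3 were compared as a description. In Liver, Ces1g was 3.78-fold higher in pericentral nuclei (71.4 against 18.9 plain CPM), and Ces1d 2.15-fold (393 against 183 plain CPM), each in 8 of 8 samples. Ces3a, Ces1c and Ces2e were also higher there in 8 of 8 samples, by 1.59-fold, 1.61-fold and 1.66-fold, and so was Ces2a, by 1.13-fold, which in Cell Suspension was higher there in only 5 of 8 samples (0.994-fold).

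Ces3b had the opposite zonal order to its neighbour Ces3a. It was higher in periportal nuclei in 8 of 8 Liver samples and 7 of 8 Cell Suspension samples, with mean log2 ratios of -0.48 ± 0.24 and -0.41 ± 0.42 (SD, n = 8). Ces1f and Ces1e were close to even in Liver, at -0.12 ± 0.10 and -0.08 ± 0.22. Ces1g and Ces1d also led in Cell Suspension, with log2 ratios of 1.74 ± 0.35 and 1.34 ± 0.66.

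**Figure D4:**
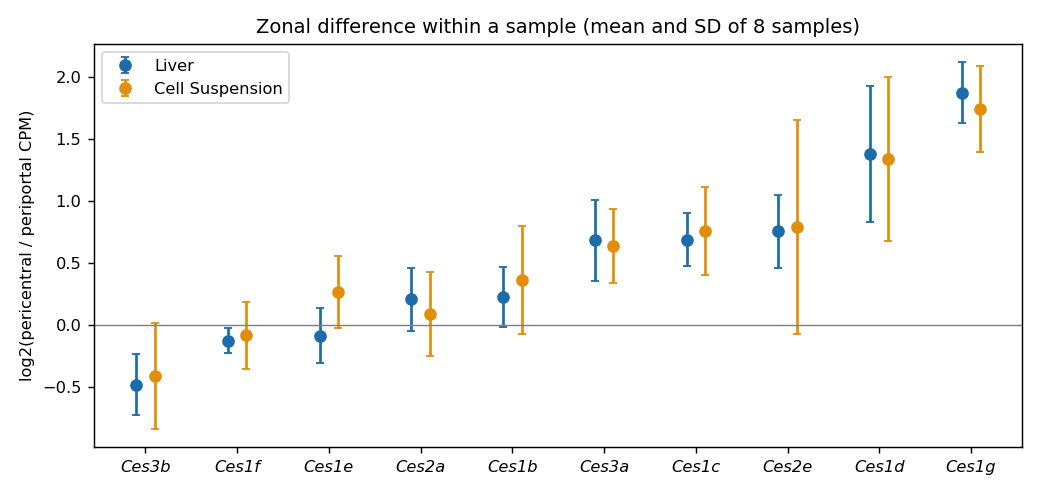
Log2 ratio of pericentral over periportal CPM in hepatocyte nuclei, mean and SD of 8 samples of Liver and of Cell Suspension, with genes in the order of their Liver value. The ratio runs from -0.48 for Ces3b to 1.88 for Ces1g in Liver.

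Ces3b and Ces1d varied widely between mice, and the same mice stood out in Liver and in Cell Suspension. For Ces3b, mice 5 and 6 had 2271 and 1693 CPM in Liver and 1961 and 2091 CPM in Cell Suspension, and mouse 3 had 716 and 700.0 CPM. The other 5 mice had between 72.2 and 198 CPM in Liver and between 134 and 184 CPM in Cell Suspension. In Primary Hepatocytes mouse 3 had the highest value, 23.5 CPM, and mice 5 and 6 had 6.72 and 13.8 CPM, within the range of the other samples (3.64 to 19.0 CPM). The cultured samples of mice 3 and 8 (19.0 CPM) were in pool 5, as was Liver of mouse 5. Their endothelial nuclei had Ces3b at 84.7 and 88.3 plain CPM. Low-UMI barcodes had 666 plain CPM in pool 5, 279 in pool 4, 260 in pool 2 and 63.3 in pool 3, the pools of the cultured samples. The part of the pool in these values was not tested.

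For Ces1d, mice 2, 4, 6 and 8 had 421, 558, 555 and 529.9 CPM in Liver and 419.8, 598, 537 and 419.9 CPM in Cell Suspension. Mice 3, 5 and 7 had 55.0, 113 and 104 CPM in Liver and 63.7, 101 and 95.1 CPM in Cell Suspension, and mouse 1 lay between with 233 and 180.2 CPM. Mouse 6 was thus high in both genes, whereas mice 3 and 5 were high in Ces3b and low in Ces1d. In Primary Hepatocytes mice 2, 4, 6 and 8 had 12.5, 15.1, 32.3 and 17.9 CPM, and mice 1, 3, 5 and 7 had 11.4, 14.4, 16.5 and 9.95 CPM. Mice 6 and 8 were the highest and mouse 7 the lowest, and the values of the other mice overlapped.

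**Figure D5:**
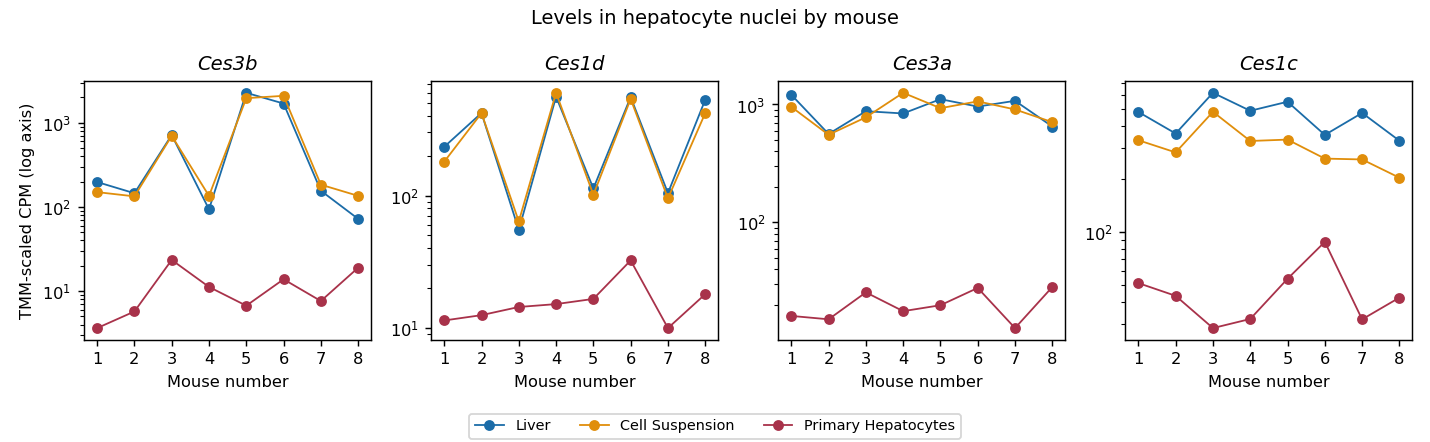
TMM-scaled CPM on a log axis by mouse number for Ces3b, Ces1d, Ces3a and Ces1c in hepatocyte nuclei, 1 line per sample type that joins its points and implies no order of mice. Liver and Cell Suspension follow the same mice, with Ces3b highest in mice 5 and 6 and Ces1d low in mice 3, 5 and 7, while for these genes the cultured samples span a narrower range, with mouse 3 highest in Ces3b and mouse 6 in Ces1d.

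The spread of both genes between mice was large against the difference between Liver and Cell Suspension of the same mouse. The SD of log2(CPM + 1) over the 8 Liver samples was 1.91 for Ces3b and 1.30 for Ces1d, against a median of 0.23 over 8498 genes with at least 10 CPM in Liver, and they ranked 8 and 63 among these genes. The SD of the same-mouse difference between Cell Suspension and Liver was 0.43 for Ces3b and 0.20 for Ces1d, whereas between Primary Hepatocytes and Liver it was 2.02 and 1.17. For the other 8 members the Liver SD ranged from 0.32 for Ces1c to 0.72 for Ces1g, and the same-mouse SD from 0.15 to 0.30. In Primary Hepatocytes the SD was 0.82 for Ces3b and 0.49 for Ces1d. Liver and Cell Suspension of mice 6 and 7 shared a pool, and those of the other 6 mice did not.

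The other 9 carboxylesterase genes did not move as one. In Primary Hepatocytes compared with Liver, 5 were lower (Ces2b, Ces2c, Ces2g, Ces2h and Ces4a), 3 were higher (Ces1a, Ces1h and Ces5a) and Ces2f was not called, where 26.3% of all genes were lower and 27.4% higher. Ces2c went from a mean of 19.1 ± 5.85 CPM to 9.70 ± 2.58 CPM (log2 fold change -0.99 ± 0.19, adjusted p = 5.58e-05). Ces1h was near 0 in Liver (0.0821 CPM) and at 1.82 ± 0.403 CPM in culture (log2 fold change 4.62 ± 0.42, adjusted p = 5.64e-11). Between Cell Suspension and Liver, Ces4a was lower (14.2% of all genes) and Ces5a higher (8.16%).

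Among 30 other esterases and lipid hydrolases, 18 were lower and 6 higher in Primary Hepatocytes than in Liver, where 26.3% of all genes were lower and 27.4% higher, and the median log2 fold change was -0.71. The largest falls were in Mgll, the monoacylglycerol lipase (427 to 8.09 CPM, log2 fold change -5.72 ± 0.17), in Lipg, endothelial lipase (74.0 to 1.56 CPM, -5.59 ± 0.36), and in Pon1, the plasma paraoxonase (233 to 6.64 CPM, -5.14 ± 0.33). The largest rises were in Esd (49.2 to 235 CPM, 2.25 ± 0.13), Abhd2 (47.4 to 206 CPM, 2.11 ± 0.25) and Acot2 (0.532 to 1.35 CPM, 1.37 ± 0.27). Adjusted p of these 6 genes was at most 7.58e-05. Compared with Cell Suspension, 17 were lower and 7 higher in Primary Hepatocytes, where 23.5% of all genes were lower and 26.9% higher.

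Of 15 transcription factors of liver and xenobiotic genes, 14 were lower in Primary Hepatocytes than in Liver (26.3% of all genes were) and 0 higher (27.4% of all genes), with a median log2 fold change of -2.75. The largest falls were in Nr1i3, the constitutive androstane receptor (66.7 to 1.01 CPM, log2 fold change -6.11 ± 0.30), Nr0b2, the small heterodimer partner (56.8 to 1.73 CPM, -5.05 ± 0.30), and Onecut1 (534 to 17.9 CPM, -4.90 ± 0.97), with adjusted p of at most 6.95e-05. Onecut1 ranged from 36.5 to 2005 CPM in Liver with a median of only 71.1 CPM, against a median of 16.4 CPM in culture, so its mean and fold change rest on a few mice. Nfe2l2, a regulator of oxidative stress genes, was not called (179 and 212 CPM, log2 fold change 0.24 ± 0.17). Between Cell Suspension and Liver 3 of these factors were higher and 2 lower, where 8.16% of all genes were higher and 14.2% lower.

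Over the 24 hepatocyte sums, the genes most like the summed members in log2(CPM + 1) were Mylk, C8a, Acsm5, Cyp4f14 and Gstz1, with Pearson r between 0.991 and 0.994 among 8602 genes. Since the sums fall into cultured and other samples, r mostly reflects this division and is given as a description. The gene most like Ces3b was Cyp4a12a (r = 0.983), that most like Ces1d was Per3 (r = 0.968), and that most like Ces2a was Aadac (r = 0.982), a microsomal esterase.

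Ces3b, which fell together with the rest, has a promoter in RefSeq (GRCm38.p6) that holds 2 of the 4 motifs searched. The motifs were AGGTCA, a core of nuclear receptor sites, GTTAAT, a core of HNF1 sites, TATAAA, the TATA box, and TTGCGCAA, a C/EBP palindrome, on both strands of 300 bases around the start. The 40 bases at chr8:105083695-105083734 on the plus strand are shown with both matches in capitals.
Ces3b: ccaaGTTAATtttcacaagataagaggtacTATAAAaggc
GTTAAT begins 56 and TATAAA 30 bases before the annotated start. Of 32851 promoters, 7.10% held GTTAAT, 13.6% TATAAA, 16.3% AGGTCA and 0.183% TTGCGCAA. Of the 8 promoters of members in the table, which cover 7 genes, 1 held GTTAAT, 2 TATAAA and 1 AGGTCA.

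Levels differed between clusters of cultured hepatocyte nuclei. Of the 5 clusters of cultured nuclei read as hepatocytes, cluster 17 (1271 nuclei) had the summed members at 498 ± 76.4 plain CPM (SD, n = 8 samples), and the 2 largest, 0 and 1, had 92.1 ± 23.3 and 135 ± 20.8 plain CPM. In cluster 17, Ces1c was at 215 ± 51.8 CPM, Ces1d at 110 ± 38.9 CPM and Ces1b at 34.3 ± 13.4 CPM, against 34.6, 7.91 and 1.24 CPM in cluster 0, and in cluster 17 all 3 were above endothelial nuclei of the same sample in 8 of 8 samples. Ces3a was at 46.3 ± 17.1 CPM in cluster 17 and 70.4 ± 35.7 CPM in cluster 8, against 47.5 CPM in endothelial nuclei, above which it lay in 4 and 7 of 8 samples. Nuclei of cluster 8 had medians between 1490 and 3425 UMIs in these samples. This cluster held 2321 nuclei, of which 1450 were from Primary Hepatocytes and the others from Liver or Cell Suspension. Each nucleus was summed with its own sample. The clusters were formed from the same nuclei and genes, so these values are a description.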

How the data were processed

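Nuclei were isolated, marked with hashtag antibodies and sequenced in 6 pools of droplet libraries. The authors quantified them with Salmon Alevin, and their deposited files give counts (UMIs, not normalized) of spliced, unspliced and ambiguous RNA per barcode and gene. Sample, cluster and cell type came from the authors' table of nuclei, since GEO's labels describe pools, and its hashtag CD2 was taken for CS2 (Cell Suspension, mouse 2). Clusters named only as cultured were read as endothelial (12) or stellate (27) by marker lists (more than 5-fold over the median cultured cluster, the larger fold deciding). The other 5 passed neither list and were read as hepatocytes by exclusion, without a threshold on hepatocyte markers. Their summed hepatocyte markers were between 3779 (cluster 14) and 10514 plain CPM (cluster 8), against 3963 in cluster 12. Doublets had been removed by the authors.

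The 3 counts were added and summed per sample over hepatocyte or endothelial nuclei. Genes with at least 10 counts were tested with edgeR 4.0.16 (R 4.3.3; TMM, quasi-likelihood, 1 coefficient per sample type, no covariate), calls being made at a Benjamini-Hochberg adjusted p under 0.05. The standard error is the fold change divided by the square root of F. In simulated data for Primary Hepatocytes against Liver, 100 genes were changed by 1 on the log2 scale. In hepatocyte nuclei 100% of them were recovered among 26449 genes, and in endothelial nuclei 59% among 17766. A change of that size in a member with a large standard error, such as Ces3b, can still be missed in hepatocyte nuclei. Shares were compared with two-sided exact permutation tests in Python 3.11.15. The spliced share needed at least 20 UMIs in every sample.

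CPM refer to the TMM-scaled total, except where endothelial and hepatocyte nuclei are compared. Values of zones, clusters of cultured nuclei, biliary nuclei and low-UMI barcodes are plain too. Members and lists were chosen with earlier results of these data known. Named list genes are the 3 with the largest rise and fall among called genes. The methods take the 3 samples of a mouse from 1 isolation, and equal numbers were read as the same mouse. Deviations from the group mean correlated between Liver and Cell Suspension of the same mouse by 0.383 to 0.859 (8498 genes, median -0.103 for different mice), whereas with Primary Hepatocytes the medians were 0.044 and 0.0178.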

Additional observations from a re-analysis of the deposited data

Results flagged for a closer look

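Of 30 combinations of member and sample type, 5 had a sample set apart from the other 7 by more than Dixon's critical value, where chance marks about 1 in 20. Ces2a was highest in mouse 4, with 141 CPM in Liver (next 92.0) and 166 CPM in Cell Suspension (next 92.1). Ces1c was highest in mouse 6 among Primary Hepatocytes (87.8 CPM, next 54.2) and in mouse 3 among Cell Suspension samples (479 CPM, next 333). Ces1d was highest in mouse 6 among Primary Hepatocytes (32.3 CPM, next 17.9).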

How the results depend on the processing

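All 10 members remained called lower in Primary Hepatocytes, against Liver and against Cell Suspension, under each of 19 alternatives: RLE size factors, other filters, DESeq2 1.42.0, the pool or the mouse (replicate block) as a term, spliced or unspliced UMIs alone, all nuclei, thinned sums, no non-cultured nuclei, and leaving out each mouse. Between Cell Suspension and Liver 1 member was called (Ces1c), and the count ranged from 0 to 1 when a mouse was left out. It was 0 with RLE size factors, filterByExpr, DESeq2, spliced UMIs alone, all nuclei or thinned sums, and 2 with the replicate block. The paired test with the replicate block also gave 5 members with a different share of the family's UMIs and 6 with a different share of nuclei with a UMI between these groups, against 0 and 1 unpaired (0 for the share of nuclei with the replicate block when adjusted over all genes, where no gene was called lower), and spliced UMIs alone gave 1 for the family share. In endothelial nuclei 2 members instead of 5 were called in Primary Hepatocytes against Liver with RLE size factors. The replicate block changed no other count by over 1.5 times. Adjusting over all genes was chosen after seeing the data, and for spliced shares left 4 instead of 5 members between Primary Hepatocytes and Cell Suspension. At the depth of endothelial nuclei, changes of 1 on the log2 scale can be missed, as can those of Ces3b in hepatocyte nuclei.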

Other observations

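Other genes followed the same mice as Ces3b and Ces1d. They were picked after their values were seen, as the 5 with the highest Pearson r over the 16 Liver and Cell Suspension sums (8 mice) among 8602 genes, and r is a description only. For Ces3b these were Cyp7b1 (r = 0.975), Cyp4a12a, Cyp2c70, Gm30262 and Gbp8. Cyp7b1, an oxysterol hydroxylase known for higher levels in male liver, had 13268.5 CPM in Liver of mouse 5, 7904 in mouse 6 and 4161 in mouse 3, and between 568 and 763 CPM in the other 5 mice. Cyp4a12a, a fatty acid hydroxylase also known as male-predominant, had 246, 234 and 75.8 CPM in mice 5, 6 and 3 and at most 36.8 CPM in the others. In Primary Hepatocytes of mice 5 and 6, Cyp7b1 was at 96.7 and 121 CPM, within the 83.3 to 182 CPM of the other mice. Cyp2c70 was at 194 and 384 CPM, above the other mice (76.3 to 168 CPM). Cyp4a12a was at 3.10 and 7.45 CPM (others 3.05 to 5.09). Gm30262 was at 12.5 and 12.6 CPM (others 7.66 to 22.9), and Gbp8 at 1.89 and 1.47 CPM (others 1.70 to 4.20).

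For Ces1d the 5 genes were Osbpl3 (r = 0.947), Tsku, Per3, Per2 and Usp2. Per2 and Per3 are clock genes, and Usp2 is known to cycle with the clock. Per3 in Liver was at 144, 161, 144 and 125 CPM in mice 2, 4, 6 and 8 and between 22.2 and 47.6 CPM in mice 1, 3, 5 and 7. Usp2 was between 27.5 and 42.3 CPM in the former mice and between 2.49 and 5.63 CPM in the latter. In Primary Hepatocytes Per3 was between 4.67 and 8.36 CPM in every mouse. The time of day of sampling is not given in the sources used here.

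Biliary epithelial nuclei of Liver had Ces1d at 24.8 to 448 plain CPM (10 to 57 nuclei per sample), with a mean of 170 ± 159 and a median of 118 CPM. The highest value came from a sample with 16 such nuclei. Means were 87.9 ± 72.6 CPM in leukocytes, 73.5 ± 64.6 in stellate, 67.0 ± 54.1 in Kupffer and 45.2 in endothelial nuclei. Ces3a was at 66.3 CPM in biliary and 128 CPM in endothelial nuclei.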
